A study of Mus musculus with 8 samples.

Results

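The 36 genes described here encode the chaperones and folding enzymes of the endoplasmic reticulum (ER), the sensors of the unfolded protein response, the ATF4 branch of that response and the machinery of ER-associated degradation. They form a named list of known function, picked by gene symbol and not by a threshold on measured values, though earlier results of these data were known when the list was drawn up, and make up 36 of the 54532 entries of the deposited count table. The RNAseq data were obtained from primary lung fibroblasts (pFBs) of female C57/black mice, grown out of minced lung and kept in serum-containing culture. The members were kept in 4 groups, namely 14 ER chaperones and folding enzymes, 4 genes for the stress sensors and *Xbp1*, 12 genes of the ATF4 branch and 6 genes of ER-associated degradation.

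WT libraries came from wild type mice, and HOMO libraries from mice homozygous for a CRISPR/Cas9 knock-in of human IGFBP5 (hIGFBP5), a secreted binding protein of insulin-like growth factors. The transgene is driven by the Ef1a1 promoter, which is active in most cell types and not limited to fibroblasts. Neither group received a treatment, and 4 libraries per genotype, WT1 to WT4 and HOMO1 to HOMO4, were compared. Since the sources used here do not say how many mice gave the 8 libraries, p-values measure the spread between libraries only, which may in part be technical. The human transgene itself was not analysed here.

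Secreted and membrane proteins enter the ER unfolded, where chaperones hold them, disulfide isomerases set their cysteine bridges, and calnexin retains unfinished glycoproteins. When unfolded protein accumulates, the sensors IRE1 (gene *Ern1*), ATF6 and PERK (gene *Eif2ak3*) start the unfolded protein response. IRE1 splices the mRNA of *Xbp1*, ATF6 is cleaved into a transcription factor, and PERK phosphorylates eIF2α, which slows translation while favouring that of *Atf4*. ATF6 and XBP1 are known to raise the transcription of chaperone and degradation genes, and ATF4 that of amino acid synthesis and stress genes. Fibroblasts load this pathway heavily because collagens and other matrix proteins are folded in the ER.

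Library totals ran from 17236521 to 29028769 counted reads in WT and from 19009027 to 31987790 in HOMO. Levels are given as CPM (counts scaled to library size, after TMM normalization), and the floor of 3 counts equals 0.0908 to 0.172 CPM depending on the library, which covers counting error only. Of the 36 members, 35 passed the filter on low counts and 1, *Derl3*, did not. DEGs were called by edgeR's two-sided quasi-likelihood F test at a Benjamini-Hochberg adjusted p under 0.05 over all 14150 genes tested and a log2 fold change (HOMO minus WT) beyond 0.6 in either direction. Some libraries were near-identical. WT1 with WT2, HOMO1 with HOMO2 and HOMO3 with HOMO4 differed by a biological coefficient of variation of 4.71 to 7.65%, whereas it was 30.0 to 56.4% in the remaining pairs within a genotype. These near pairs still differed by more than sampling noise (chi-square per degree of freedom from 4.03 to 8.14, where noise alone gives about 1) and were kept as separate libraries. The fibroblast markers *Col1a1* and *Vim* were abundant in all 8 libraries, and no epithelial or endothelial marker list summed to more than 13.6 CPM in any library. *Vim* (−0.65, adjusted p = 0.0430 in edgeR) and the fibroblast receptor gene *Pdgfrb* (−0.97, adjusted p = 0.0251 in edgeR) were themselves called down on the log2 scale. Of the 9 fibroblast markers, 5 lay below 0 and 4 above, with a median of −0.10. DESeq2 called 3 of them down and 2 up. They summed to 12940 to 16620 CPM in WT and 14000 to 24380 CPM in HOMO. The 4 smooth muscle markers summed to 827, 769, 2705 and 861 CPM in WT1 to WT4 and to 198, 205, 1450 and 1426 CPM in HOMO1 to HOMO4, so WT3 was highest here as for the chaperones, and the part of this in the members' levels was not tested. Macrophage markers were not evenly spread: the 6 genes summed to 112 and 144 CPM in WT1 and WT2, 1904 and 1123 CPM in WT3 and WT4, and 23.8 to 160 CPM in HOMO.

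Of the 14 genes for ER chaperones and folding enzymes, 5 were downregulated in hIGFBP5 pFBs and 0 upregulated. Of the 35 tested members, 7 were downregulated and 0 upregulated: the chaperone genes *Canx*, *Dnajb11*, *Dnajc3*, *Hyou1* and *Creld2*, the PERK gene *Eif2ak3* and the degradation gene *Edem1*. Among all 14150 tested genes, 6.18% were called down and 5.94% up, 12.1% in either direction. With no threshold on the fold change the members called lower were the same in number, 7, against 6.93% of all genes. All 14 chaperone genes had a log2 fold change below 0, with a median of −0.71, as did all 12 genes of the ATF4 branch, with a median of −0.44, while over all genes tested 52.7% lay below 0 and the median was −0.04. Against WT1 and WT2 alone, a comparison added after the data were seen, 12 of the 14 chaperone genes and 9 of the 12 ATF4 branch genes lay below 0. In bulk RNA, fewer cells of a type and less RNA per cell cannot be told apart.

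The 2 genotypes did not overlap in CPM for 14 members, in each of which every HOMO library was lower, against 13.4% of all tested genes with HOMO lower and 14.0% with HOMO higher. They included 10 of the 14 chaperone genes, namely *Hspa5*, *Hsp90b1*, *Canx*, *Pdia3*, *Pdia4*, *Dnajb11*, *Dnajc3*, *Hyou1*, *Manf* and *Creld2*, together with *Eif2ak3*, *Atf3*, *Chac1* and *Edem1*. An unadjusted p under 0.05 with HOMO lower was found for 16 of 35 members and for 17.4% of all genes. DESeq2 on the same genes called 14 members down, the same 14 that did not overlap, and 0 up, against 10.4% of all genes called down. The calls were sensitive to which libraries entered. Without HOMO1 or without HOMO2, 1 member, *Dnajc3*, was called, and 1.38 and 1.40% of all genes were called down, and without HOMO3 it was 4 members and 3.19% of all genes. When the counts of each near pair were summed, leaving 3 WT and 2 HOMO units, edgeR called 0 members and 0 of the 16130 genes tested in that fit. An unadjusted p under 0.05, in either direction, was found there for 7 members and for 2057 of the 16130 genes.

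**Figure D1:**
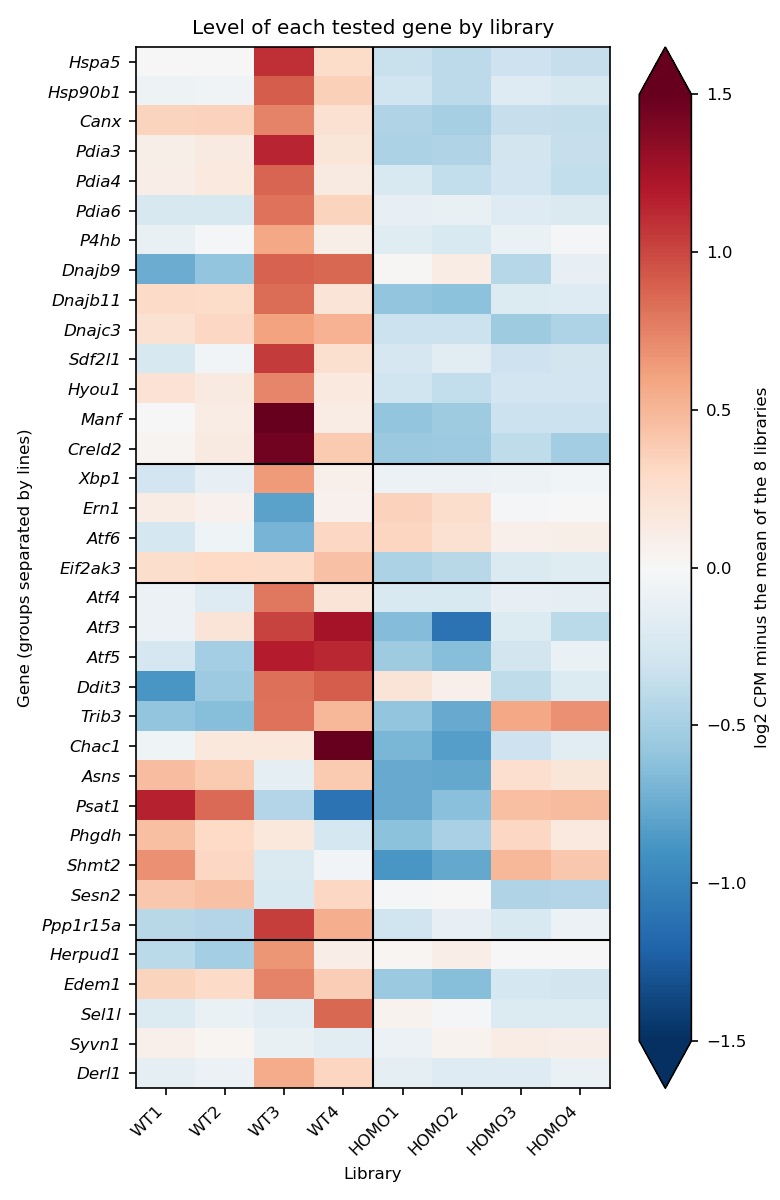
Colour gives log2 CPM minus the mean of the 8 libraries for each of the 35 tested members (rows, in their 4 groups) in each library (columns). Every chaperone gene reached its highest level in WT3, and the HOMO columns of the chaperone block lie mostly below the mean.

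*Hspa5* (chromosome 2 from 34771970 to 34777547) encodes BiP, the Hsp70 of the ER lumen that also holds the stress sensors inactive. It was measured at 964, 953, 2045 and 1158 CPM in WT1 to WT4 and 762, 729.8, 769.9 and 752 CPM in HOMO1 to HOMO4. Every HOMO library lay below every WT library, WT3 was far above the other WT libraries, and the HOMO libraries were close to each other. A log2 fold change of −0.76 (SE 0.26, adjusted p = 0.0814 in edgeR) was not a call, whereas DESeq2 called it (adjusted p = 0.0252), and without WT3 it was −0.45. *Hsp90b1* (chromosome 10 from 86690209 to 86705509) encodes GRP94, the Hsp90 of the ER. Its levels were 1084, 1098, 2146 and 1458 CPM in WT1 to WT4 and 925, 866, 999.9 and 964 CPM in HOMO1 to HOMO4. They too fell apart by genotype, with WT3 and WT4 above the other WT libraries, and the log2 fold change of −0.62 (SE 0.24, adjusted p = 0.110 in edgeR) was not a call in edgeR but was in DESeq2 (adjusted p = 0.0497), and it came to −0.37 without WT3. Of the exon bases of *Hsp90b1*, 5.38% overlap other genes on the same strand and 10.3% lie opposite other genes, and whether the counting used strand is not stated.

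*Canx* (chromosome 11 from 50293961 to 50325673) encodes calnexin, the membrane lectin that retains glycoproteins with unfinished sugars. Its levels were 913, 921, 1215 and 850.1 CPM in WT1 to WT4 and 529, 513, 570.3 and 564 CPM in HOMO1 to HOMO4. The lowest WT library, WT4, lay above the highest HOMO library, HOMO3, and the HOMO libraries were close to each other. Calnexin mRNA changed by −0.84 (SE 0.16, adjusted p = 0.0132 in edgeR) on the log2 scale, 1.79-fold lower in HOMO, and of the 8 fits that left out 1 library, those without HOMO1 or HOMO2 lost the call (adjusted p of 0.0577 and 0.0595).

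*Dnajc3* (chromosome 14 from 118937976 to 118981697) encodes p58IPK, a co-chaperone of BiP that also restrains PERK. It was measured at 331, 350.0, 429.5 and 406 CPM in WT1 to WT4 and 226, 227, 195 and 205 CPM in HOMO1 to HOMO4. The genotypes were well apart, and HOMO3 and HOMO4 were lower than HOMO1 and HOMO2. Its log2 fold change of −0.83 (SE 0.14, adjusted p = 0.00855 in edgeR) had the lowest adjusted p of the members, and *Dnajc3* was the single member called in all 8 fits with 1 library left out. Leaving out 1 library of a near pair keeps its partner, and with near pairs summed the edgeR adjusted p of *Dnajc3* was 0.328. *Dnajb11* (chromosome 16 from 22857845 to 22879634), a soluble J-domain co-chaperone of BiP, stood at 131, 129, 191 and 122 CPM in WT1 to WT4 and 71.1, 69.6, 92.4 and 93.4 CPM in HOMO1 to HOMO4. WT3 was above the other WT libraries, and HOMO3 and HOMO4 were above HOMO1 and HOMO2. *Dnajb11* changed by −0.81 (SE 0.19, adjusted p = 0.0267 in edgeR) on the log2 scale, with the call lost without HOMO1, HOMO2 or HOMO3 (adjusted p up to 0.0974).

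*Hyou1* (chromosome 9 from 44379490 to 44392369) encodes GRP170, a large Hsp70 relative and nucleotide exchange factor of BiP. Its levels were 285, 269, 407 and 272 CPM in WT1 to WT4 and 199.8, 189.7, 201 and 202 CPM in HOMO1 to HOMO4. WT3 was well above the other WT libraries, which lay close together. At −0.64 (SE 0.16, adjusted p = 0.0353 in edgeR) the change was near the fold threshold, and the call was lost in 7 of the 8 fits with 1 library left out, all but that without WT4. Without WT3 the log2 fold change was −0.48. *Creld2* (chromosome 15 from 88819646 to 88826683), an ER-resident protein induced by ER stress, was measured at 45.3, 48.4, 119.9 and 57.8 CPM in WT1 to WT4 and 30.0, 30.1, 33.9 and 30.7 CPM in HOMO1 to HOMO4. HOMO libraries lay in a narrow range, and WT3 was far above the other WT libraries. It had the largest log2 fold change of the called members, −1.12 (SE 0.30, adjusted p = 0.0440 in edgeR), which came to −0.70 without WT3 with the call kept. The call was lost without WT4 or without any 1 of the HOMO libraries (adjusted p from 0.0537 to 0.126).

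Among the disulfide isomerase genes, *Pdia3* (chromosome 2 from 121413775 to 121438687), which encodes ERp57, the partner of calnexin, was measured at 1162, 1201, 2406 and 1233 CPM in WT1 to WT4 and 782, 795, 898 and 858 CPM in HOMO1 to HOMO4. WT3 was far above the other WT libraries, which lay together, and all HOMO libraries were lower. A log2 fold change of −0.85 (SE 0.26, adjusted p = 0.0614 in edgeR) was not a call, and without WT3 it was −0.53. *Pdia4* (chromosome 6 from 47796141 to 47813430) encodes ERp72 and showed 304, 314, 516 and 310.1 CPM in WT1 to WT4 and 241, 219, 232 and 219 CPM in HOMO1 to HOMO4. The pattern was that of *Pdia3* on a smaller scale, with a log2 fold change of −0.66 (SE 0.19, adjusted p = 0.0542 in edgeR). *Manf* (chromosome 9 from 106838312 to 106891979), a secreted stress-induced factor that binds BiP, stood at 131, 140.4, 379 and 140.2 CPM in WT1 to WT4 and 86.3, 89.8, 104 and 104 CPM in HOMO1 to HOMO4. Most of its WT spread was the level in WT3. Its log2 fold change of −1.04 (SE 0.35, adjusted p = 0.0805 in edgeR) came to −0.52 without WT3. DESeq2 called these 3 genes, with adjusted p of 0.0110, 0.0124 and 0.0240. Of the exon bases of *Manf*, 8.85% lie opposite other genes.

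The other 4 chaperone genes overlapped between the genotypes and were not called by edgeR or DESeq2. *P4hb*, the protein disulfide isomerase that is also a subunit of the collagen prolyl hydroxylase, ranged over 1566 to 2529 CPM in WT and 1445 to 1652 CPM in HOMO, and its change was −0.29 (SE 0.19, adjusted p = 0.316 in edgeR). *Pdia6*, another isomerase, ranged over 238 to 495 CPM in WT and 243 to 260.3 CPM in HOMO (log2 fold change −0.40, edgeR adjusted p = 0.284). *Sdf2l1*, a component of the BiP chaperone cycle, was found at 24.5 to 59.5 CPM in WT and 23.4 to 25.6 CPM in HOMO (log2 fold change −0.59, edgeR adjusted p = 0.165). *Dnajb9*, which encodes the IRE1 inhibitor ERdj4, was lowest of all in WT1 and WT2 and highest in WT3 and WT4, and its log2 fold change of −0.39 (edgeR adjusted p = 0.518) became 0.57 against WT1 and WT2 alone. Per kilobase of exon, the mean level ranked *P4hb* first (659.5 in WT and 538 in HOMO, in CPM per kilobase), then *Pdia3* (478 in WT and 266 in HOMO), *Hsp90b1* (359 in WT and 233 in HOMO) and *Hspa5* (303 in WT and 178 in HOMO), with *Dnajb9* lowest (18.6 in WT and 14.2 in HOMO).

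**Figure D2:**
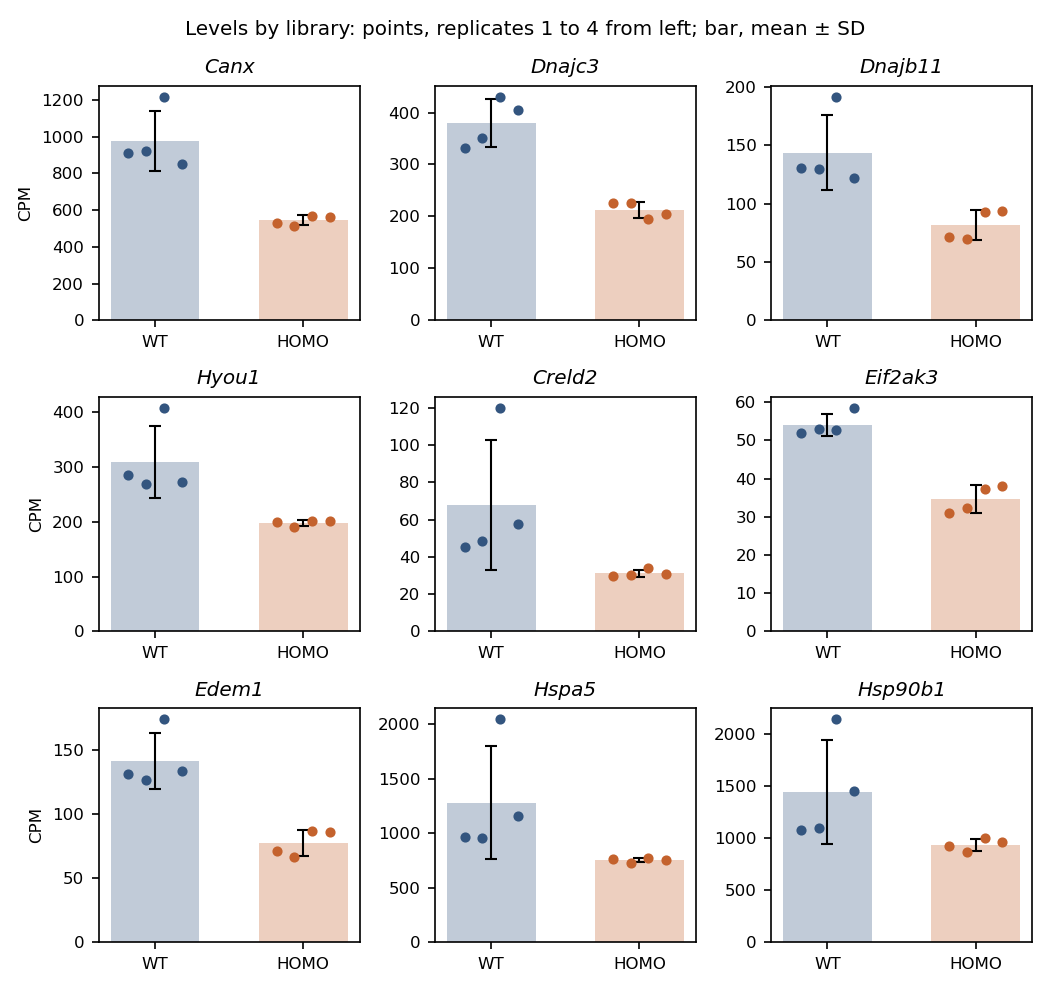
Each panel shows 1 gene, with CPM on the y axis from 0, points for replicates 1 to 4 of each genotype from left to right, and bars for the mean ± SD of 4 libraries. In all 9 genes, the 7 called members with *Hspa5* and *Hsp90b1*, no HOMO point reaches a WT point, and WT3 is the highest point in 8 of them.

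WT3 had the highest level of all 14 chaperone genes, and HOMO1 or HOMO2 the lowest of 10. Summed over the group, the chaperones took 7202, 7380, 13010 and 8255 CPM in WT1 to WT4 and 5655, 5501, 5968 and 5947 CPM in HOMO1 to HOMO4. The HOMO libraries thus lay within a narrow band below all WT libraries, and WT3 stood apart. Without WT3 the median log2 fold change of the group was −0.46, and it was also −0.46 with WT1 and WT2 as the only WT libraries, which had the lowest macrophage marker sums of the WT libraries. These sums were 112 and 144 CPM, against 25.4, 23.8, 138 and 160 CPM in HOMO1 to HOMO4. Proliferation marker sums were 1573 and 1379 CPM in WT1 and WT2, against 286, 281, 1212 and 1082 CPM in HOMO1 to HOMO4. The part of these differences in the members' levels was not tested. In the comparison with WT1 and WT2 alone, chosen after the data were seen, 6 members were called down, *Canx*, *Dnajb11*, *Dnajc3*, *Eif2ak3*, *Sesn2* and *Edem1*, and 1, *Ddit3*, was called up, against 9.12% of all genes called down and 11.8% up. As WT1 and WT2 are near-identical (biological coefficient of variation 7.65%), its p-values and calls rest on little WT spread.

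The chaperone promoters are known for the ER stress response element (ERSE), which is bound by ATF6 together with NF-Y. Promoters of 32 members, from 250 bases before to 50 bases after the RefSeq transcription start in GRCm38.p6, were searched on both strands. The letters were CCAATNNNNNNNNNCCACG for ERSE, ATTGGNCCACG for ERSE-II, TGACGTGG for the XBP1-bound element UPRE and TGATGNAA for the C/EBP-ATF response element (CARE) that ATF4 binds. ERSE and ERSE-II share their last 5 letters, and UPRE holds those 5 letters on the other strand. *Hyou1*, *Manf*, *Atf6* and *Derl1* had no promoter entry. ERSE was found in the promoters of 8 members, *Hspa5*, *Hsp90b1*, *Canx*, *Pdia6*, *Dnajc3*, *Creld2*, *Syvn1* and *Derl3*, and in 0.119% of all 32851 promoters. ERSE-II was found in those of *Dnajb11* and *Herpud1* and in 0.0365% of all promoters, and UPRE in 0 members and 0.676% of all. The windows below show the match in the 4 called chaperone genes that hold one and in the genes for BiP and GRP94, 5′ to 3′ on the strand of the gene, with the fixed letters of each match in capitals. A window that lay in an annotated exon was kept to at most 28 bases.
Hspa5 (chr2:34772021-34772047, plus strand): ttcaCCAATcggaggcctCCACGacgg
Hsp90b1 (chr10:86705508-86705681, minus strand): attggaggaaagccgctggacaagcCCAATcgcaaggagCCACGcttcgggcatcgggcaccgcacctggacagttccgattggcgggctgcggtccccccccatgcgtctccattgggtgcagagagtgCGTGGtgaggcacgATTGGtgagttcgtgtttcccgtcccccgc
Canx (chr11:50325775-50325843, minus strand): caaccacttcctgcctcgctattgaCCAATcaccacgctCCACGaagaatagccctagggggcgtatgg
Dnajc3 (chr14:118937802-118937870, plus strand): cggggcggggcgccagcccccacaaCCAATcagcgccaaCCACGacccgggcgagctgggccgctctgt
Creld2 (chr15:88819495-88819563, plus strand): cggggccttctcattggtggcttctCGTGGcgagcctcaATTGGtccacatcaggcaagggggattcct
Dnajb11 (chr16:22857844-22857870, plus strand): cggcggcgATTGGcCCACGcctggctg

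The match began 65 bases before the start in *Hspa5*, 145 in *Canx*, 105 in *Dnajc3* and 126 in *Creld2*, where it lay on the reverse strand. *Hsp90b1* held 2 matches on opposite strands, and that of *Dnajb11* began 8 bases after the start. The 7 tested members with ERSE included 3 of the downregulated ones, but also *Pdia6* (log2 fold change −0.40) and *Syvn1* (0.09), which were not called. Of 29 other genes with an ERSE match in the promoter, 10 were tested, 3 were called up and 0 down, and the median log2 fold change was 0.52. Among these was the chaperone gene *Calr* at −0.53 (SE 0.20, adjusted p = 0.114 in edgeR). Of 10 other genes with an ERSE-II match, 7 were tested, 0 were called up and 1 down, and the median was −0.30. A match is a string of letters and does not show that a factor was bound.

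The stress sensors did not move together. *Eif2ak3* (chromosome 6 from 70844515 to 70905245), the gene of PERK, was measured at 52.0, 53.0, 52.9 and 58.5 CPM in WT1 to WT4 and 30.9, 32.2, 37.2 and 38.1 CPM in HOMO1 to HOMO4. The WT libraries lay close together, WT3 included, and all HOMO libraries were lower, HOMO1 and HOMO2 most. Its log2 fold change of −0.64 (SE 0.12, adjusted p = 0.0144 in edgeR) was a call that was lost without HOMO1 or HOMO2 (adjusted p of 0.0649 and 0.0673). Of its exon bases, 8.05% lie opposite a predicted gene.

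*Ern1* (chromosome 11 from 106394650 to 106487852), the gene of IRE1, was measured at 103, 99.0, 54.5 and 99.3 CPM in WT1 to WT4 and 120.5, 114, 93.0 and 94.3 CPM in HOMO1 to HOMO4. WT3 was the lowest library and HOMO1 the highest, the genotypes overlapped, with a change of 0.25 (SE 0.21, adjusted p = 0.458 in edgeR) on the log2 scale. *Atf6* (chromosome 1 from 170704674 to 170867771) was found at 116, 134, 86.3 and 174 CPM in WT1 to WT4 and 175, 163, 147 and 149 CPM in HOMO1 to HOMO4. The WT libraries spread over a range that held all HOMO libraries but HOMO1, with WT3 again lowest, and the log2 fold change was 0.32 (SE 0.21, adjusted p = 0.318 in edgeR). Against WT1 and WT2 alone, which are near-identical, that of *Atf6* was 0.35 (edgeR adjusted p = 0.0489). In limma-voom with quality weights it was 0.26 (adjusted p = 0.0395), and both were short of the fold threshold. *Xbp1* (chromosome 11 from 5520659 to 5525893), whose mRNA is the substrate of IRE1, stood at 94.3, 105, 179 and 121 CPM in WT1 to WT4 and 109, 108, 109 and 112 CPM in HOMO1 to HOMO4. The HOMO libraries lay together between WT1 and WT4, and WT3 was highest. The log2 fold change of −0.19 (SE 0.20, adjusted p = 0.531 in edgeR) rested on that library, since it was 0.03 without WT3. Counts per gene do not tell spliced from unspliced *Xbp1* mRNA, so the activity of IRE1 was not measured. Over the 4 genes 1 was called down, 0 were called up, and the median log2 fold change was 0.03.

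**Figure D3:**
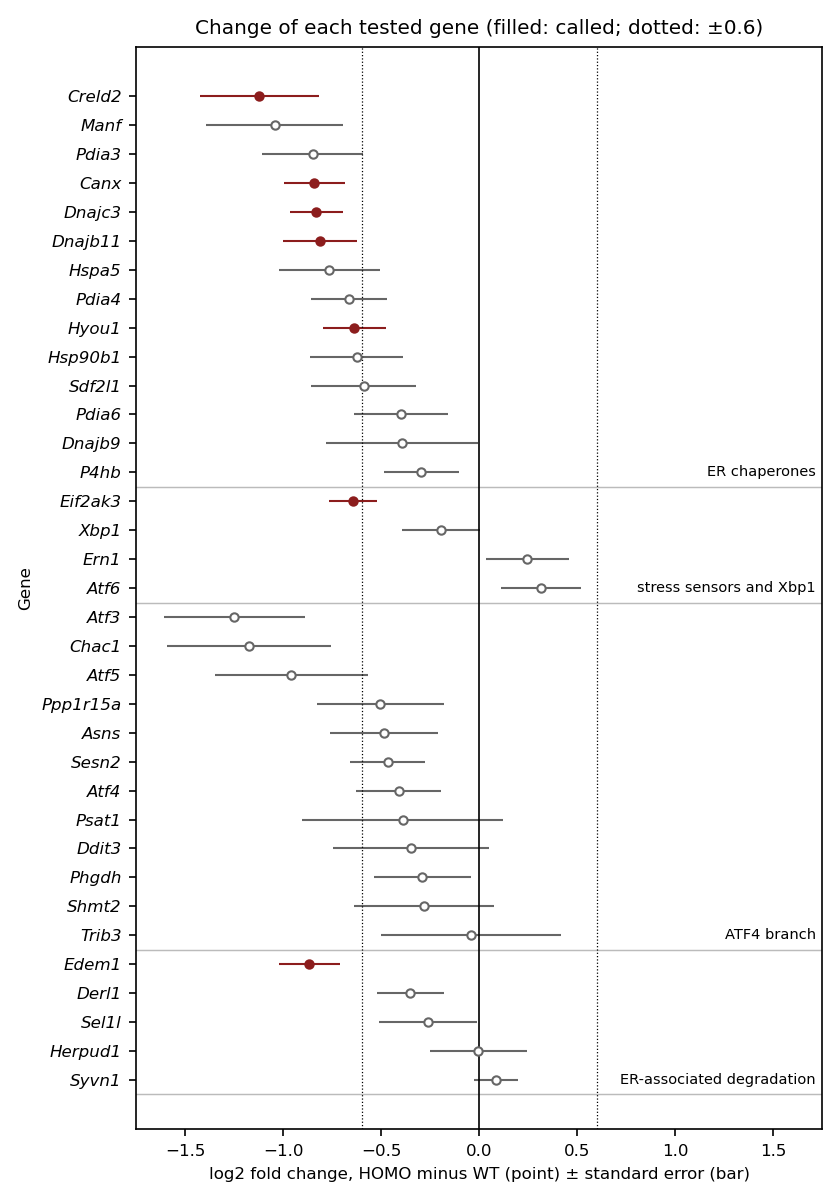
Points give the log2 fold change (HOMO minus WT) of the 35 tested members and bars the standard error, ordered by size within each group, with filled points for called genes and dotted lines at ±0.6. All 14 chaperone genes and all 12 ATF4 branch genes lie left of 0, and *Ern1*, *Atf6* and *Syvn1* lie right of it.

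In the ATF4 branch 0 of 12 genes were called by edgeR in either direction, although all 12 had a log2 fold change below 0 and 4 (*Atf3*, *Atf5*, *Chac1* and *Sesn2*) had an unadjusted p under 0.05. DESeq2 called 2, *Atf3* and *Chac1*, down, and limma-voom with sample quality weights 3, *Atf3*, *Psat1* and *Sesn2*, with 11.1% of all genes called down there. *Atf4* (chromosome 15 from 80255184 to 80257541), the transcription factor that gives the branch its name, was measured at 209.7, 195, 387 and 256 CPM in WT1 to WT4 and 190.3, 190.1, 204 and 203 CPM in HOMO1 to HOMO4. The HOMO libraries lay close to WT1 and WT2, with WT3 well above them and WT4 between. Its log2 fold change was −0.41 (SE 0.22, adjusted p = 0.223 in edgeR), and −0.04 against WT1 and WT2 alone. ATF4 is controlled mainly at translation, which these counts do not measure.

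*Atf3* (chromosome 1 from 191170296 to 191218039), a stress-induced repressor and activator of the same protein family, was measured at 4.56, 5.53, 9.76 and 11.5 CPM in WT1 to WT4 and 3.08, 2.24, 4.21 and 3.66 CPM in HOMO1 to HOMO4. WT3 and WT4 were highest, and HOMO2 was lowest. At −1.25 (SE 0.36, adjusted p = 0.0527 in edgeR) it had the largest decrease of all tested members on the log2 scale, without a call in edgeR and with one in DESeq2 (adjusted p = 0.00737). *Chac1* (chromosome 2 from 119351229 to 119354381), a glutathione-degrading enzyme induced by ATF4, was found at 14.5, 16.9, 16.9 and 50.6 CPM in WT1 to WT4 and 9.45, 8.59, 12.3 and 13.6 CPM in HOMO1 to HOMO4. WT4 alone was far above the other WT libraries. Its log2 fold change of −1.17 (SE 0.42, adjusted p = 0.0945 in edgeR) came to −0.55 without WT4. *Ddit3* (chromosome 10 from 127290774 to 127296288), which encodes the pro-apoptotic factor CHOP, stood at 25.6, 32.0, 82.9 and 87.6 CPM in WT1 to WT4 and 53.3, 49.1, 35.9 and 40.6 CPM in HOMO1 to HOMO4. The HOMO libraries lay between WT1 and WT2 below and WT3 and WT4 above. With all libraries the log2 fold change was −0.35 (SE 0.40, adjusted p = 0.581 in edgeR). Against WT1 and WT2 alone, which are near-identical, it was 0.64 and called up (edgeR adjusted p = 0.0445). *Ddit3* stood on 2 entries of the table, of which the second held no counts, and 4.73% of its exon bases lie opposite another gene.

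*Asns* (chromosome 6 from 7675169 to 7693254), asparagine synthetase, was measured at 109, 104, 71.1 and 103 CPM in WT1 to WT4 and 46.6, 46.4, 93.7 and 89.3 CPM in HOMO1 to HOMO4. HOMO1 and HOMO2 were lowest, and HOMO3 and HOMO4 lay within the WT range, above WT3. *Asns* changed by −0.49 (SE 0.28, adjusted p = 0.257 in edgeR) on the log2 scale. The serine synthesis genes *Psat1* and *Phgdh* and the mitochondrial serine enzyme gene *Shmt2* had their highest level in WT1. *Psat1* ranged over 68.6 to 329 CPM in WT and 87.2 to 205 CPM in HOMO, *Phgdh* over 131 to 215 CPM in WT and 102 to 196 CPM in HOMO and *Shmt2* over 85.6 to 160.1 CPM in WT and 54.3 to 140.0 CPM in HOMO. Their log2 fold changes were −0.39, −0.29 and −0.28, with edgeR adjusted p of 0.635, 0.450 and 0.623. They depended on single libraries. With 1 library left out, *Psat1* ran from −0.67 without WT4 to −0.0050 without WT1, *Phgdh* from −0.46 without HOMO3 to −0.15 without HOMO1 and *Shmt2* from −0.52 without HOMO3 to −0.08 without HOMO1. The 10 proliferation markers were uneven too. They summed to 1573, 1379, 278 and 148 CPM in WT1 to WT4 and to 286, 281, 1212 and 1082 CPM in HOMO1 to HOMO4, so the libraries with high *Psat1* (WT1, WT2, HOMO3 and HOMO4) were those with the higher marker sums, and the part of proliferation in these levels was not tested.

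The other genes of the branch overlapped between genotypes. *Atf5*, a transcription factor translated like ATF4, ranged over 120.0 to 387 CPM in WT and 109 to 159 CPM in HOMO (log2 fold change −0.96, edgeR adjusted p = 0.131), with WT3 and WT4 far above the rest. *Sesn2*, a brake on mTORC1, ranged over 36.1 to 57.4 CPM in WT and 30.9 to 42.4 CPM in HOMO (−0.47, edgeR adjusted p = 0.132). *Ppp1r15a*, which encodes the eIF2α phosphatase subunit GADD34, ranged over 26.3 to 73.0 CPM in WT and 29.0 to 33.6 CPM in HOMO (−0.50, edgeR adjusted p = 0.314). *Trib3*, a pseudokinase that dampens ATF4, ranged over 6.39 to 17.6 CPM in WT and 5.90 to 16.1 CPM in HOMO (−0.04, edgeR adjusted p = 0.961). The mean of the 12 centred log2 CPM values was 0.07, 0.03, 0.41 and 0.46 in WT1 to WT4 and −0.48, −0.52, 0.01 and 0.03 in HOMO1 to HOMO4. HOMO3 and HOMO4 were thus level with WT1 and WT2, while HOMO1 and HOMO2 lay below all other libraries.

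**Figure D4:**
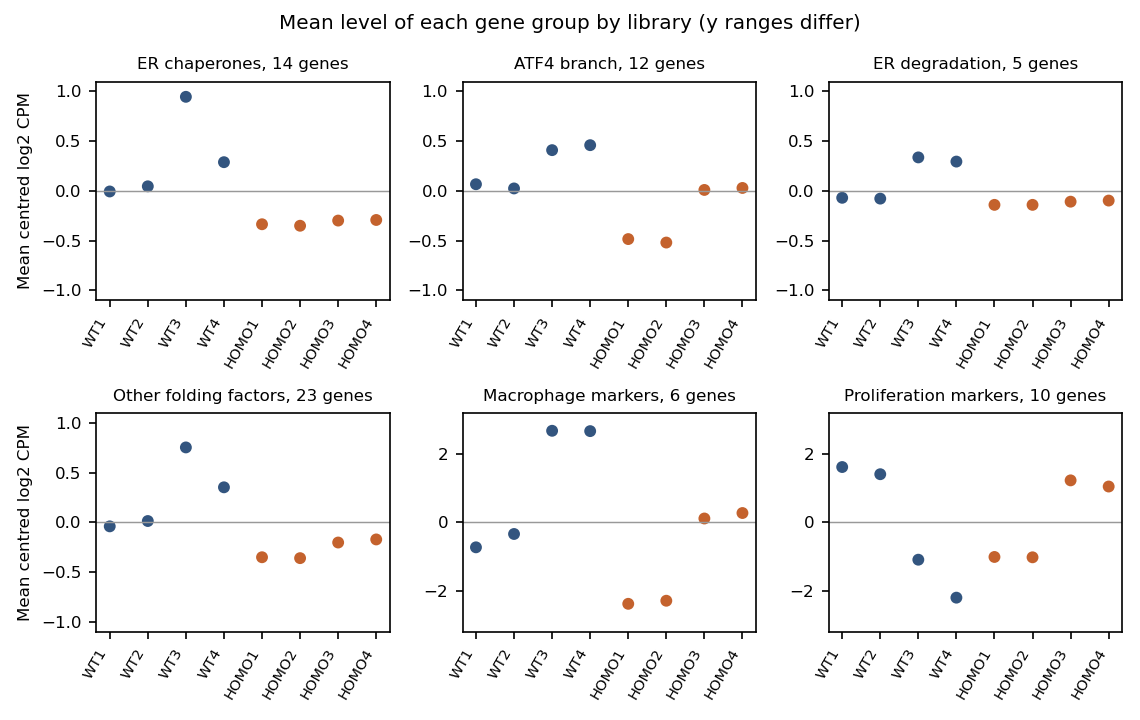
Each point is the mean over a gene group of log2 CPM centred on the mean of the 8 libraries, for 4 groups of ER genes and for macrophage and proliferation markers (y ranges differ between panels), with WT libraries in blue and HOMO libraries in orange. The chaperone panel shows all HOMO libraries between −0.35 and −0.29 and WT3 at 0.95, and the ATF4 panel shows HOMO1 and HOMO2 apart from HOMO3 and HOMO4.

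CARE was found in the promoters of 5 members, *Atf3*, *Trib3*, *Chac1*, *Asns* and *Herpud1*, and in 3.97% of all promoters. None of the 5 was called by edgeR, DESeq2 called *Atf3* and *Chac1* down, and the log2 fold changes of the 5 ran from −1.25 to −0.0044. Of 1214 other genes with a CARE match, 281 were tested, 12 were called up and 21 down, and the median was −0.10. The windows of *Asns* and *Herpud1* are shown because *Asns* is a textbook target of ATF4 and *Herpud1* holds CARE and ERSE-II in 1 promoter, with the fixed letters of each match in capitals.
Asns (chr6:7693215-7693242, minus strand): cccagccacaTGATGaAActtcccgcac
Herpud1 (chr8:94386292-94386412, plus strand): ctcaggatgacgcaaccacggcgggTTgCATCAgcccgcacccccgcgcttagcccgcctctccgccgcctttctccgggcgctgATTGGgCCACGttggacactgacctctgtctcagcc

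In ER-associated degradation, 1 of 5 tested genes was called down and 0 up, with a median log2 fold change of −0.26. *Edem1* (chromosome 6 from 108828641 to 108859356), the lectin that passes misfolded glycoproteins on to degradation, was measured at 131, 126, 174 and 133 CPM in WT1 to WT4 and 70.7, 66.4, 86.6 and 85.7 CPM in HOMO1 to HOMO4. WT3 was the highest library, and all HOMO libraries lay well below the WT range. *Edem1* changed by −0.87 (SE 0.15, adjusted p = 0.0118 in edgeR) on the log2 scale, 1.82-fold lower in HOMO, and the call was lost without HOMO1 or HOMO2 (adjusted p of 0.0526 and 0.0513). *Herpud1* (chromosome 8 from 94386438 to 94395377), a membrane scaffold of the degradation complex and a sensitive target of ER stress, was measured at 52.0, 48.4, 109 and 73.5 CPM in WT1 to WT4 and 70.3, 73.8, 68.9 and 68.8 CPM in HOMO1 to HOMO4. The HOMO libraries lay above WT1 and WT2, at the level of WT4 and below WT3. With an SE of 0.25 on the log2 scale, edgeR detected no difference over all libraries (log2 fold change −0.0044, adjusted p = 0.992). Against WT1 and WT2 alone *Herpud1* was higher in HOMO by 0.49 (edgeR adjusted p = 0.00646), as in limma-voom with quality weights (0.49, adjusted p = 0.0021), both short of the fold threshold. WT1 and WT2 are near-identical, so the first of these p-values rests on little WT spread. The limma-voom fit holds the same libraries and is not a separate check. *Herpud1* lies on chromosome 8, whose 790 tested genes had a median log2 fold change of 0.38.

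The ubiquitin ligase gene *Syvn1* (Hrd1) ranged over 90.7 to 106 CPM in WT and 95.5 to 109 CPM in HOMO, and its change was 0.09 (edgeR adjusted p = 0.628). Its partner *Sel1l* ranged over 162 to 339.8 CPM in WT and 162 to 195 CPM in HOMO (−0.26, edgeR adjusted p = 0.508). The highest value was that of WT4. In it, genes of chromosome 12, where *Sel1l*, *Pdia6* and *Dnajb9* lie, stood above the mean of the other WT libraries by a median of 0.65 on the log2 scale. In WT3 that median was 0.36 for chromosome 7, which holds *Atf5* and *Ppp1r15a*, and 0.24 for chromosome 9, which holds *Hyou1* and *Manf*. The median log2 fold change was −0.29 on chromosome 7 and 0.12 on chromosome 9. *Nupr1*, *Cars* and *Bag3*, described below, also lie on chromosome 7. The part of these shifts in the levels of single genes was not tested. *Derl1*, a channel component of retrotranslocation, ranged over 197 to 318 CPM in WT and 189 to 202 CPM in HOMO (−0.35, edgeR adjusted p = 0.197). *Derl3*, a relative of *Derl1* typical of secretory cells, was hardly expressed, counted 2, 5, 49 and 12 times across WT1 to WT4 and 6, 11, 2 and 5 times across HOMO1 to HOMO4. With a mean of 0.901 ± 1.28 CPM for WT and 0.238 ± 0.0978 CPM for HOMO (SD, n = 4 each), the difference was not distinguishable from the spread between libraries (two-sided exact permutation test over 70 assignments, p = 0.457), and without WT3 it was −0.03 CPM.

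The rest of the pathway was examined in 5 further lists with 95 genes, of which 92 were tested, 2 were called up and 11 down. Over all genes tested, 5.94% were called up and 6.18% down. Of the 95 genes, 1 was called down without HOMO1 or without HOMO2, 6 without HOMO3, 5 without HOMO4 and 7 without WT3. In these fits, 1.38, 1.40, 3.19, 3.02 and 7.02% of all genes were called down. Of the further genes, 1 was called up without HOMO1, HOMO2, WT2 or WT4. Other ER folding factors resembled the chaperones in direction: 7 of 23 tested genes were called down and 0 up. Of the 23, 21 had a log2 fold change below 0, against 52.7% of all genes, and the median was −0.64. *Txndc5* (chromosome 13 from 38500079 to 38528824), a thioredoxin-domain isomerase, was measured at 630.0, 604, 818 and 892 CPM in WT1 to WT4 and 268, 267, 343 and 331 CPM in HOMO1 to HOMO4. Every WT library lay well above every HOMO library. The log2 fold change was −1.28 (SE 0.18, adjusted p = 0.00538 in edgeR), and the call was kept in all 8 fits with 1 library left out. It was lost when near pairs were summed. *Ero1l*, the oxidase that recharges the isomerases, was called at −1.09 (SE 0.21, adjusted p = 0.0156 in edgeR), the prolyl isomerase gene *Fkbp9* at −0.99 (SE 0.21, adjusted p = 0.0191 in edgeR) and the disulfide reductase gene *Dnajc10* at −0.78 (SE 0.17, adjusted p = 0.0220 in edgeR). The calls of *Ero1l*, *Fkbp9* and *Dnajc10* were each lost in 2 of the 8 fits with 1 library left out. *Uggt1*, *Fkbp7* and *Mesd* completed the called genes of this list.

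Of 15 tested other sensors and stress factors, 1 was called down and 0 up, against 6.18 and 5.94% of all genes, with a median log2 fold change of −0.16. The called gene was *Nupr1*, a small stress-induced chromatin protein, at 23.7, 22.6, 214 and 119 CPM in WT1 to WT4 and 11.8, 12.6, 15.2 and 17.5 CPM in HOMO1 to HOMO4. WT3 and WT4, the libraries with the high macrophage marker sums, were far above all others, so the log2 fold change of −2.74 (SE 0.71, adjusted p = 0.0394 in edgeR) came to −0.70 against WT1 and WT2 alone. *Nupr1* was still called there (edgeR adjusted p = 0.0250), though WT1 and WT2 are near-identical libraries. Its call was lost in 6 of the 8 fits with 1 library left out. Of 19 other ATF4 targets, 11 lay below 0, against 52.7% of all genes, and the median was −0.12. Among them 2 were called up and 0 down, against 5.94 and 6.18% of all genes. The 2 called up were the alanine transaminase gene *Gpt2*, at 1.21 (SE 0.17, adjusted p = 0.00538 in edgeR), which lies on chromosome 8, and *Cbs*, the first enzyme of transsulfuration, at 1.99 (SE 0.49, adjusted p = 0.0327 in edgeR). With 1 library left out, the call of *Gpt2* was kept in all 8 fits and that of *Cbs* was lost in 4. Among 12 aminoacyl-tRNA synthetases, which ATF4 also induces, 10 lay below 0, against 52.7% of all genes, and the median was −0.38. Called down were 2, *Gars* at −0.60 (SE 0.14, adjusted p = 0.0262 in edgeR) and *Cars* at −0.71 (SE 0.16, adjusted p = 0.0264 in edgeR), against 6.18% of all genes. The call of *Gars*, at the fold threshold, was lost in 6 of the 8 fits with 1 library left out, and that of *Cars* in 4.

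Other genes of ER-associated degradation had a median log2 fold change of −0.21, with 1 of 23 called down and 0 up, against 6.18 and 5.94% of all genes. The called gene was the ubiquitin-conjugating enzyme gene *Ube2g2* at −0.78 (SE 0.20, adjusted p = 0.0395 in edgeR). Its call was lost in 6 of the 8 fits with 1 library left out. As a contrast outside the ER, 11 cytosolic and mitochondrial heat shock genes had a median of −0.23, with 2 called down, the co-chaperone gene *Bag3* at −0.87 (SE 0.15, adjusted p = 0.00985 in edgeR) and the Hsp110 gene *Hsph1* at −0.67 (SE 0.16, adjusted p = 0.0279 in edgeR). The call of *Bag3* was kept in all 8 fits with 1 library left out, and that of *Hsph1* was lost in 5, those without WT3 or without any 1 of the HOMO libraries (adjusted p up to 0.102). With near pairs summed, neither *Bag3* nor *Hsph1* was called.

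The levels of the macrophage markers moved with WT3 and WT4 as those of several members did. All 6 markers had a log2 fold change below 0, with a median of −2.52, none was called by edgeR, 5 were called down by DESeq2, and none was at 0 counts in any library. Against WT1 and WT2 alone, *Canx*, *Dnajc3*, *Dnajb11*, *Eif2ak3* and *Edem1* had log2 fold changes of −0.75, −0.68, −0.67, −0.60 and −0.73 and were called. *Hspa5*, *Pdia3*, *Pdia4*, *Hyou1*, *Manf* and *Creld2* came to −0.35, −0.50, −0.44, −0.48, −0.50 and −0.59 there, all short of the fold threshold though with edgeR adjusted p between 0.00445 and 0.0180. *Hsp90b1*, *Atf3* and *Chac1* came to −0.22, −0.62 and −0.52, with edgeR adjusted p of 0.119, 0.132 and 0.103. WT1 and WT2 are near-identical, so the p-values and calls of this comparison rest on little WT spread.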

How the data were processed

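The deposited table holds raw gene counts for 4 WT and 4 HOMO libraries of poly-A RNA. According to the methods and processing notes, the authors trimmed paired-end reads with fastp, aligned them to mm10 with STAR and counted them with featureCounts, without normalization before deposition. Versions, strand setting and annotation are not given in the sources used here. The label of the table reads as if an outlier had been taken out, and whether a library was removed is not stated. Of 54532 entries, 27324 had at least 1 count, and 100 symbols stood on more than 1 entry, in which case the entry with the higher total was used.

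The members and all further lists were chosen with earlier results of these data known. All 36 members are named. Values in every library are given for members called or without overlap between genotypes and for *Hspa5*, *Hsp90b1*, *Xbp1*, *Ern1*, *Atf6*, *Eif2ak3*, *Atf4*, *Ddit3*, *Asns* and *Herpud1*, and the others are given by range. In each further list the called genes, at most 4 by lowest adjusted p, are named with values.

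Counts were compared with edgeR 4.0.16 in R 4.3.3 (TMM, filterByExpr by genotype, 14150 genes, quasi-likelihood F test, Benjamini-Hochberg adjustment), with adjusted p under 0.05 and a log2 fold change beyond 0.6 as call, the thresholds of the study. The SE was derived from the fold change and its F value. The script was checked on simulated data with libraries drawn independently. That setting holds no near-identical pairs, so the check does not bear on how such pairs affect the p-values. Group means by library use log2 CPM with a prior count of 2. Alternatives were DESeq2 1.42.0, limma 3.58.1 (voom with sample quality weights), RLE and upper-quartile normalization, 2 other filters on low counts, robust dispersion, the replicate number as a block, no fold threshold, near-identical libraries summed and each library left out, and, chosen after seeing the data, WT1 and WT2 as the only WT libraries. Positions and exon overlaps are those of GENCODE M21 (GRCm38, also called mm10), and promoters those of RefSeq (GRCm38.p6), searched with Python 3.11.15. No column of per-sample values was left aside.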

Additional observations from a re-analysis of the deposited data

Results flagged for a closer look

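In each genotype of 4 libraries, a library was marked where its gap to the nearest other library, divided by the range of the group, exceeded Dixon's 95% critical value for 4 values. This was the case in 12 of 70 groups (35 tested members in 2 genotypes), of which 8 were WT3 and 3 were WT4. Chance marks about 1 group in 20 where libraries are independent, but WT1, WT2 and each HOMO library have a near-identical partner and are seldom marked for that reason, so neither the rate nor the split between libraries can be read from these groups.

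WT3 stood above the other WT libraries in 6 genes, in log2 CPM: *Pdia3* at 11.2 (others 10.2 to 10.3), *Pdia4* at 9.01 (8.25 to 8.30), *Dnajb11* at 7.58 (6.93 to 7.03), *Hyou1* at 8.67 (8.07 to 8.15), *Manf* at 8.57 (7.04 to 7.13) and *Edem1* at 7.44 (6.98 to 7.06). It stood below them in *Ern1*, at 5.77 (6.63 to 6.68), and in *Asns*, at 6.15 (6.69 to 6.76).

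WT4 stood above the other WT libraries in *Eif2ak3* at 5.87 (5.70 to 5.73), *Chac1* at 5.66 (3.87 to 4.09) and *Sel1l* at 8.41 (7.34 to 7.45). The remaining value was that of *Hyou1* in HOMO2, at 7.57 against 7.64 to 7.66 in the other HOMO libraries. WT3 and WT4 were also the libraries with the highest macrophage marker sums, 1904 and 1123 CPM against 112 and 144 CPM in WT1 and WT2, and the part of other cells in these values was not tested.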

How the results depend on the processing

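The 7 members called down and 0 called up, and the 11 and 2 further genes of the pathway, moved with the test and the libraries. DESeq2 called 14 members down. Summing near-identical libraries gave 0 members down and 0 further genes in either direction, with fewer units per genotype. Replicate numbers did not pair the libraries (correlation of the deviations of same-numbered libraries between −0.124 and 0.0141, with not every library closest to its own number), and the fit with replicate block called 3 members (against 3.57% of all genes) and 3 further genes down. With WT1 and WT2 as the only WT libraries, 1 member and 5 further genes were called up, and limma-voom with quality weights called 5 further genes up and 8 members down, among them *Atf3*, *Psat1* and *Sesn2* but not *Hyou1* or *Eif2ak3*. With 1 library left out, 1 to 7 members were called down and 0 up, and 1 to 10 further genes down and 1 to 3 up. The difference of *Derl3*, whose counts near the floor limit what can be seen, then ran from −0.926 to −0.0258 CPM. The median of the chaperone genes lay between −0.798 and −0.462 with 1 library left out and below 0 in all other alternatives run, while in limma-voom 8 of the 12 ATF4 branch genes lay below 0. The cause of these shifts was not tested beyond the smaller number of units or libraries.

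The log2 fold changes of 10 members that were not called changed sign in at least 1 alternative. Against WT1 and WT2 alone, and in limma-voom, they were 0.0794 and 0.0442 for *Pdia6*, 0.571 and 0.436 for *Dnajb9*, 0.129 and 0.0815 for *Xbp1*, 0.635 and 0.435 for *Ddit3*, 0.732 and 0.740 for *Trib3*, 0.245 and 0.236 for *Ppp1r15a* and 0.489 and 0.490 for *Herpud1*. In limma-voom that of *Atf5* was 0.103, and against WT1 and WT2 alone those of *Sel1l* and *Syvn1* were 0.0641 and −0.00321. *Herpud1* was at 0.0149 with no filter, 0.0741 with the block and 0.0174 with upper-quartile normalization. In the fits with 1 library left out, *Xbp1* ran from −0.308 to 0.0282, *Trib3* from −0.269 to 0.256, *Herpud1* from −0.150 to 0.279 and *Sel1l* from −0.367 to 0.0699.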

Other observations

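In several lists HOMO1 and HOMO2 had the lowest means of the 8 libraries, by gaps of different size. The mean centred log2 CPM of 12 aminoacyl-tRNA synthetases, which charge tRNAs with amino acids, was −0.37 and −0.34 in HOMO1 and HOMO2 and 0.02 and 0.01 in HOMO3 and HOMO4, against 0.08 to 0.27 in WT. For the 19 other ATF4 targets it was −0.44 and −0.46 in HOMO1 and HOMO2 and 0.36 and 0.24 in HOMO3 and HOMO4, which lay above WT3 and WT4 (−0.07 and −0.08). For the 11 cytosolic and mitochondrial heat shock genes it was −0.35 and −0.31 in HOMO1 and HOMO2 and 0.06 and 0.03 in HOMO3 and HOMO4. The gap was smaller for the 14 chaperone genes, with −0.34 and −0.35 in HOMO1 and HOMO2 and −0.30 and −0.29 in HOMO3 and HOMO4, and for the 23 other ER folding factors, with −0.35 and −0.36 against −0.20 in the next library. It was also present in marker lists, at −0.36 and −0.47 for fibroblast markers (next library −0.13), −2.38 and −2.29 for macrophage markers (next −0.73) and −2.05 and −2.04 for smooth muscle markers (next −1.08), and is thus not particular to any of these lists. Both pairs are near-identical libraries, so these differences within HOMO have no replicate check and were not tested.

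Outside the members, the 3 genes with an ERSE match that were called up were *Pan2*, *Zfp57* and *Xlr3a*, named after their values were seen. *Pan2*, a subunit of a deadenylase, changed by 0.99 (SE 0.25, adjusted p = 0.0336 in edgeR) and *Zfp57*, a zinc finger protein of imprinted loci, by 1.30 (SE 0.36, adjusted p = 0.0463 in edgeR) on the log2 scale. *Xlr3a* had 0, 1, 6 and 1 reads over WT1 to WT4, and 249, 398, 181 and 227 reads over HOMO1 to HOMO4, with a fitted log2 fold change of 6.71 (SE 0.74, adjusted p = 0.00217 in edgeR) that depends on the prior count, since WT lies near the floor of 3 counts. It has close copies on the X chromosome, between which counting can split reads, so its level is uncertain.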
